A study of Mus musculus with 20 samples.

Results

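Matrix metalloproteinases (MMPs) and their tissue inhibitors (TIMPs) were followed in cells sorted from 2 kinds of mouse mammary tumour. The set holds 10 genes of the 52783 in the count table, 7 MMPs (Mmp2, Mmp3, Mmp9, Mmp12, Mmp13, Mmp14 and Mmp19) and 3 TIMPs (Timp1, Timp2 and Timp3), and all 10 passed the filter on low counts in every comparison. They were selected on measured levels from this same table, and which levels were used is not recorded. The contrast of 66cl4 with 67NR among CD45+ cells was counted as one that chose them, so its values for the members are a description: levels and fold changes are given with no p-value, and nothing is read from the number of members that pass its thresholds. P-values of the other contrasts come from fits over all genes, and they are no independent evidence for the choice of genes. The interaction contains the CD45+ contrast. Its p-values for the members are therefore not free of the choice and also serve as description.

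MMPs are secreted or membrane-bound zinc endopeptidases that are made as inactive precursors and cut collagens, other matrix proteins and many signalling proteins once activated. TIMPs bind the active site of MMPs and hold them inactive. In tumours, both cancer cells and the fibroblasts and leukocytes around them are known to produce these proteins, and the gelatinase Mmp9 is a stored granule protein of neutrophils.

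The tumours grew from 66cl4 or 67NR cells, which are sister lines derived from a BALB/c mammary carcinoma, and 1000000 cells were injected into the mammary fat pad of young adult female BALB/cJ mice. 66cl4 tumours spread to the lung and 67NR tumours do not. The sequenced libraries came from 5 mice per line, and none of them came from a tumour-free mouse. Live cells of each dissociated tumour were sorted by the leukocyte surface protein CD45 into a CD45+ gate of immune cells and a CD45- gate of the remaining cells, which can hold cancer cells, fibroblasts and endothelial cells. Each mouse gave 1 library per gate, 20 libraries in all, with 66cl4 animals numbered 3, 4, 5, 6 and 7 and 67NR animals numbered 1, 4, 5, 6 and 7. Values listed below follow this order of animals.

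Total counts per library lay between 12960000 and 28080314. Ptprc, which encodes CD45, was 82.0-fold or more higher in the CD45+ than in the CD45- library of 9 of the 10 mice and 33.6-fold higher in 67NR animal 4. The cell type recorded for 66cl4 animals 5 and 6 contradicted their sample titles. The titles were used, and Ptprc was 128-fold and 506-fold higher in the libraries titled CD45+ of these animals. Summed epithelial markers were 6057 to 6844 normalised counts in 66cl4 CD45- libraries but 124.5 to 390.6 in 67NR CD45- libraries. Krt8 made up most of the 66cl4 sum, with a mean of 5353 against 61.6 in 67NR. Of the 6 markers, 3 were higher on average in 66cl4 (Krt8, Krt18 and Krt14) and 3 lower (Epcam, Cdh1 and Krt5). Summed fibroblast markers were high in CD45- libraries of both tumours, at 9504 to 15290 in 66cl4 and at 14557 to 22626 in 67NR.

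Mmp3, Mmp12 and Mmp13 lie close together on chromosome 9, in the order Mmp13, Mmp12, Mmp1b and Mmp3 among protein-coding genes. Their promoters are shown because these neighbours followed 3 different patterns across the 4 groups, described below. The sequences run from 250 bases before to 50 bases after the RefSeq transcript start on the plus strand of GRCm38.p6, and capitals mark the letters TGANTCA, the motif of the transcription factor AP-1.
Mmp13, chr9:7272264-7272563: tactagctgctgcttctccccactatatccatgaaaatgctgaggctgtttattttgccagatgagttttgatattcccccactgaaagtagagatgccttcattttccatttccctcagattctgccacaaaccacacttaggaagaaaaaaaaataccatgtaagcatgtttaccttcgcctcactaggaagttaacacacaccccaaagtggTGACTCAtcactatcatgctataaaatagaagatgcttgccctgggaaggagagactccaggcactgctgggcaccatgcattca
Mmp12, chr9:7344147-7344446: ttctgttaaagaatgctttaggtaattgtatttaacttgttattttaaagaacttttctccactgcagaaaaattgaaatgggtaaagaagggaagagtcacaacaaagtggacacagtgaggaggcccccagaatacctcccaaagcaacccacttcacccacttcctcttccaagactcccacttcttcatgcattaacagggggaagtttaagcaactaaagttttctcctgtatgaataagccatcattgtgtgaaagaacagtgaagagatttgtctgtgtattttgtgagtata
Mmp3, chr9:7445572-7445871: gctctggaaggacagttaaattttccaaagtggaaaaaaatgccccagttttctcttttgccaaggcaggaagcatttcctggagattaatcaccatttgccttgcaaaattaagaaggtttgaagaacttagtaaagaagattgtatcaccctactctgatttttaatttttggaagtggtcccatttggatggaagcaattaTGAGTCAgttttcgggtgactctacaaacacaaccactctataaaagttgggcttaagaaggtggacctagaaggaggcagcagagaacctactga

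The AP-1 motif was searched on both strands, where it reads the same. It occurred once in the Mmp3 window, with its first base at position -46 from the start, and once in that of Mmp13, at position -35. No match was found in the Mmp12 window shown, which belongs to the outermost of 2 annotated starts. Windows of the same length were at hand for 7 of the 10 members, those of Mmp3, Mmp12, Mmp13, Mmp14, Timp1, Timp2 and Timp3. Among all 32851 windows, 7.81% held the motif. The TATA motif TATAAA followed the AP-1 motif in both genes, at position -7 in Mmp3 and -16 in Mmp13, and 13.6% of all windows held it on either strand. The ETS-family motif AGGAAG was present in the windows of Mmp3, Mmp12 and Mmp13, and in 35.4% of all windows. It was also present in those of Mmp14, Timp1 and Timp3, but not in that of Timp2.

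Levels between genes were compared as TPM, the share of transcripts after correction for transcript length. In 66cl4 CD45+ cells Mmp9 was the most abundant member at 297 TPM ± 98.45 (SD, n = 5), above every library of Timp2 at 94.0 TPM. Timp2, Mmp12 at 87.4 TPM and Timp1 at 70.8 TPM followed, and neighbours in this order overlapped. In 67NR CD45+ cells Timp2 led at 142 TPM, and the next, Mmp12, stood at 35.7 TPM. Timp1, Mmp14, Mmp9, Mmp2, Mmp13 and Mmp19 came after it, at 33.7 down to 14.8 TPM, with no gap between neighbours.

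In the CD45- gate Timp2 was the most abundant member of both tumours, at 244 TPM in 66cl4 and 431 TPM in 67NR. The leading MMP differed between them. It was Mmp14, the membrane-anchored collagenase that activates Mmp2, at 37.6 TPM in 66cl4, whose libraries overlapped those of Mmp9 at 31.0 TPM. In 67NR it was the gelatinase Mmp2 at 142 TPM, which overlapped Timp1 at 137 TPM. At the other end stood Mmp19 in 66cl4, at 0.532 TPM, and Mmp13 in 67NR, at 0.416 TPM.

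Summed over the 7 MMPs, 66cl4 CD45+ libraries held 336.2 to 571.3 TPM, and Mmp9 made up 51.8 to 72.2% of it. The sum was 107.1 to 183.8 TPM in 67NR CD45+ libraries, with 12.5 to 18.1% from Mmp9. Summed TIMPs overlapped between these groups, at 130.6 to 195.2 TPM and 122.2 to 253.5 TPM. The ratio of summed MMP to summed TIMP transcripts was accordingly 2.35 to 3.49 in 66cl4 CD45+ libraries and 0.627 to 0.887 in 67NR CD45+ libraries.

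Among CD45- cells this order was turned around. The ratio was 0.160 to 0.259 in 66cl4, as compared with 0.404 to 0.591 in 67NR, and the 4 groups did not overlap. Summed MMPs were 58.2 to 107.5 TPM in 66cl4, as compared with 194.3 to 344.2 TPM in 67NR, where Mmp2 supplied 48.3 to 56.4%. These ratios add transcripts of proteins with different substrates and are a measure of RNA only. They cover the selected members and leave out the rest of the family. Mmp11, left out, had means of 16.1 TPM in 66cl4 and 2.64 TPM in 67NR CD45- cells. Mmp8, also left out, had 30 TPM in 66cl4 and 13.7 TPM in 67NR CD45+ cells. No test was run on the ratios.

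**Figure D1:**
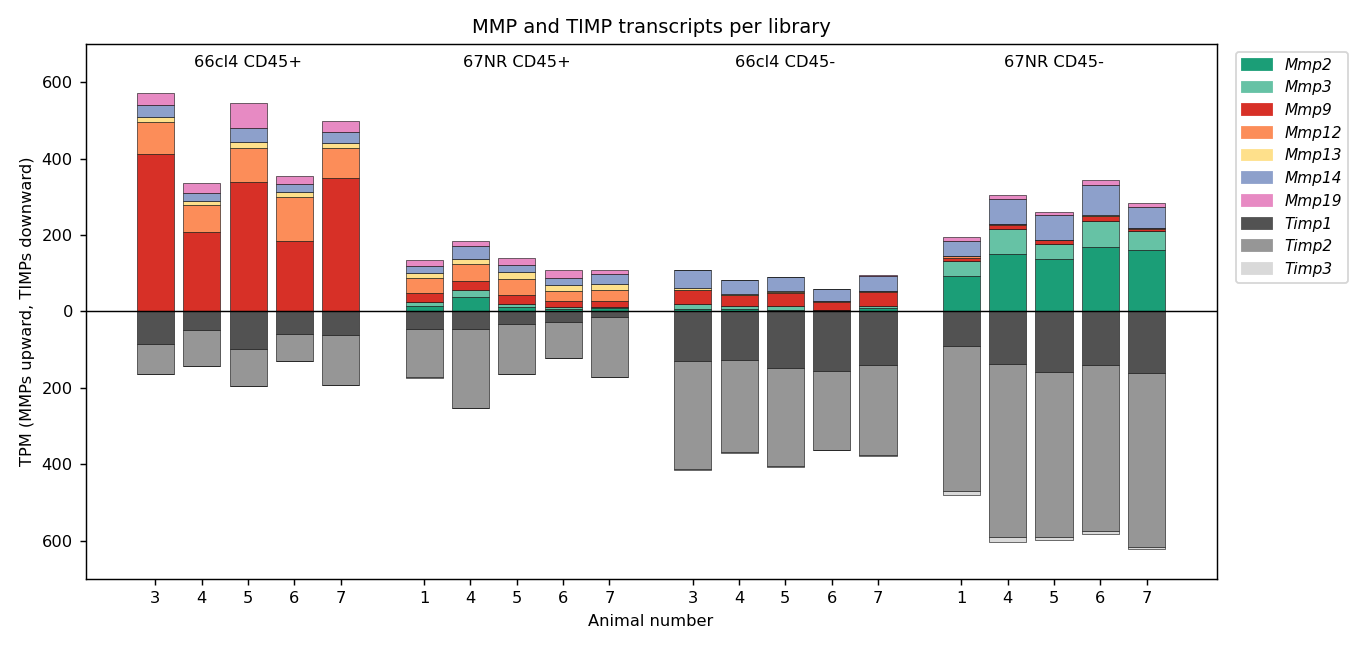
TPM of the 7 MMPs (stacked upward) and the 3 TIMPs (stacked downward) in each of the 20 libraries, by group and animal number. Mmp9 fills most of the upward bars in 66cl4 CD45+ cells, Mmp2 about as much as all other MMPs together in 67NR CD45- cells, and Timp2 most of the downward bars outside 66cl4 CD45+ animals 3 and 5.

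The gelatinase Mmp9 separated the tumours in both gates. In CD45+ cells its normalised counts (counts divided by the size factor of the library) were 10832, 5082, 9533, 5864 and 8553 in 66cl4. In 67NR they were 666.5, 613.3, 697.2, 373.9 and 409.5. The 2 tumours did not overlap, and the ratio of the means was 14.4, with a log2 fold change of 3.86 ± 0.28 (SE).

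In the CD45- gate Mmp9 was lower, and the tumours again did not overlap. The normalised counts were 915.8, 737.6, 849.1, 573.6 and 931.3 in 66cl4, and 210.6, 273.1, 252.0, 318.7 and 184.1 in 67NR. Mmp9 was thus 3.24-fold higher in 66cl4 (log2 fold change 1.72 ± 0.16, edgeR adjusted p = 3.92e-07). The tumour difference of CD45+ cells exceeded that of CD45- cells by 2.15 ± 0.31 on the log2 scale (edgeR interaction test, adjusted p = 1.58e-05). This value contains the CD45+ difference that chose the members and is no independent test.

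Most neutrophil markers were also higher on average in 66cl4 CD45+ cells, at 6 of 9, while Camp, Ltf and Ngp were lower. The sum of the 9 markers was 43781 to 124036 in 66cl4, as compared with 7014 to 51270 in 67NR. These sums overlapped between the tumours, whereas the Mmp9 counts did not. The part of neutrophils in the Mmp9 difference was not tested. In bulk libraries, fewer cells of a type and less RNA per cell cannot be told apart. Mmp9 in CD45- cells stood at 10.1% of its CD45+ level in 66cl4 and at 44.9% in 67NR, whereas macrophage markers stood at 0.754 to 1.31% and 1.94 to 3.83%. Neutrophil markers had medians of 0.199% and 4.51%, with a highest value of 19.7% in 66cl4 and 61.3% in 67NR.

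The other neutrophil-associated genes of the family were outside the selected set, so their differences are not ranked against that of Mmp9. Mmp8, the neutrophil collagenase, had means of 1106 ± 429 in 66cl4 and 520 ± 392 in 67NR CD45+ cells (SD, n = 5 each), which was not called (log2 fold change 1.08, edgeR adjusted p = 0.125). Mmp25, a membrane-type MMP of leukocytes, had means of 616 ± 205 and 467 ± 106 and was not called either (0.41, edgeR adjusted p = 0.229). Both groups of libraries overlapped for both genes.

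The other gelatinase, Mmp2, went the opposite way from Mmp9. Its normalised counts in CD45- cells were 177.9, 203.2, 99.1, 97.7 and 205.6 in 66cl4, and 2761, 3826, 4192, 4438 and 4425 in 67NR. The groups were far apart, and Mmp2 was 25.1-fold higher in 67NR (log2 fold change -4.61 ± 0.25, edgeR adjusted p = 8.44e-09). CD45+ cells held less in both tumours, with 11.1, 22.9, 5.79, 16.8 and 33.8 in 66cl4 and 480.7, 1046, 330.3, 188.1 and 260.3 in 67NR. These also did not overlap, and the log2 fold change was -4.63 ± 0.60. The tumour difference of Mmp2 was not found to depend on the gate (interaction 0.02 on the log2 scale, edgeR adjusted p = 0.997). The interaction was -0.48 to 0.576 when single libraries were left out, so equal differences in the 2 gates are not shown.

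Mmp3, or stromelysin-1, which cuts proteoglycans and activates other MMPs, shared this order. In CD45- cells the normalised counts were 323.9, 166.5, 225.6, 35.1 and 145.7 in 66cl4, and 1094, 1573, 1182, 1681 and 1305 in 67NR. All 67NR libraries were higher, with a log2 fold change of -2.91 ± 0.43 (edgeR adjusted p = 1.93e-04). In CD45+ cells they were 6.95, 17.2, 7.71, 5.26 and 16.9 in 66cl4 against 324.7, 532.0, 196.2, 112.6 and 65.8 in 67NR, a log2 fold change of -4.46 ± 0.64.

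Mmp2 and Mmp3 were lower in CD45+ than in CD45- cells in 5 of 5 animals of each tumour. The CD45+ level of Mmp2 was 11.5% of the CD45- level in 66cl4 and 11.7% in 67NR, and Mmp3 had 10.8 against 179 mean counts in 66cl4 and 246 against 1367 in 67NR. The 9 fibroblast markers, which include Col1a1 and Pdgfra, had CD45+ levels at a median of 6.86% of CD45- in 66cl4 (4.03 to 122%) and 9.80% in 67NR (5.41 to 46.9%). Among CD45+ cells 7 of 9 fibroblast markers were lower in 66cl4 than in 67NR, and among CD45- cells 6 of 9 were. Their part in the Mmp2 and Mmp3 differences was not tested. The markers did not move alike in CD45- cells. Dpt had 22.5 to 60.9 normalised counts in 66cl4 libraries against 3507 to 4696 in those of 67NR, and Fap had 7.96 to 14.0 against 86.05 to 142.2. Pdgfra went the other way, with 4167 to 4645 against 2305 to 3331.

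**Figure D2:**
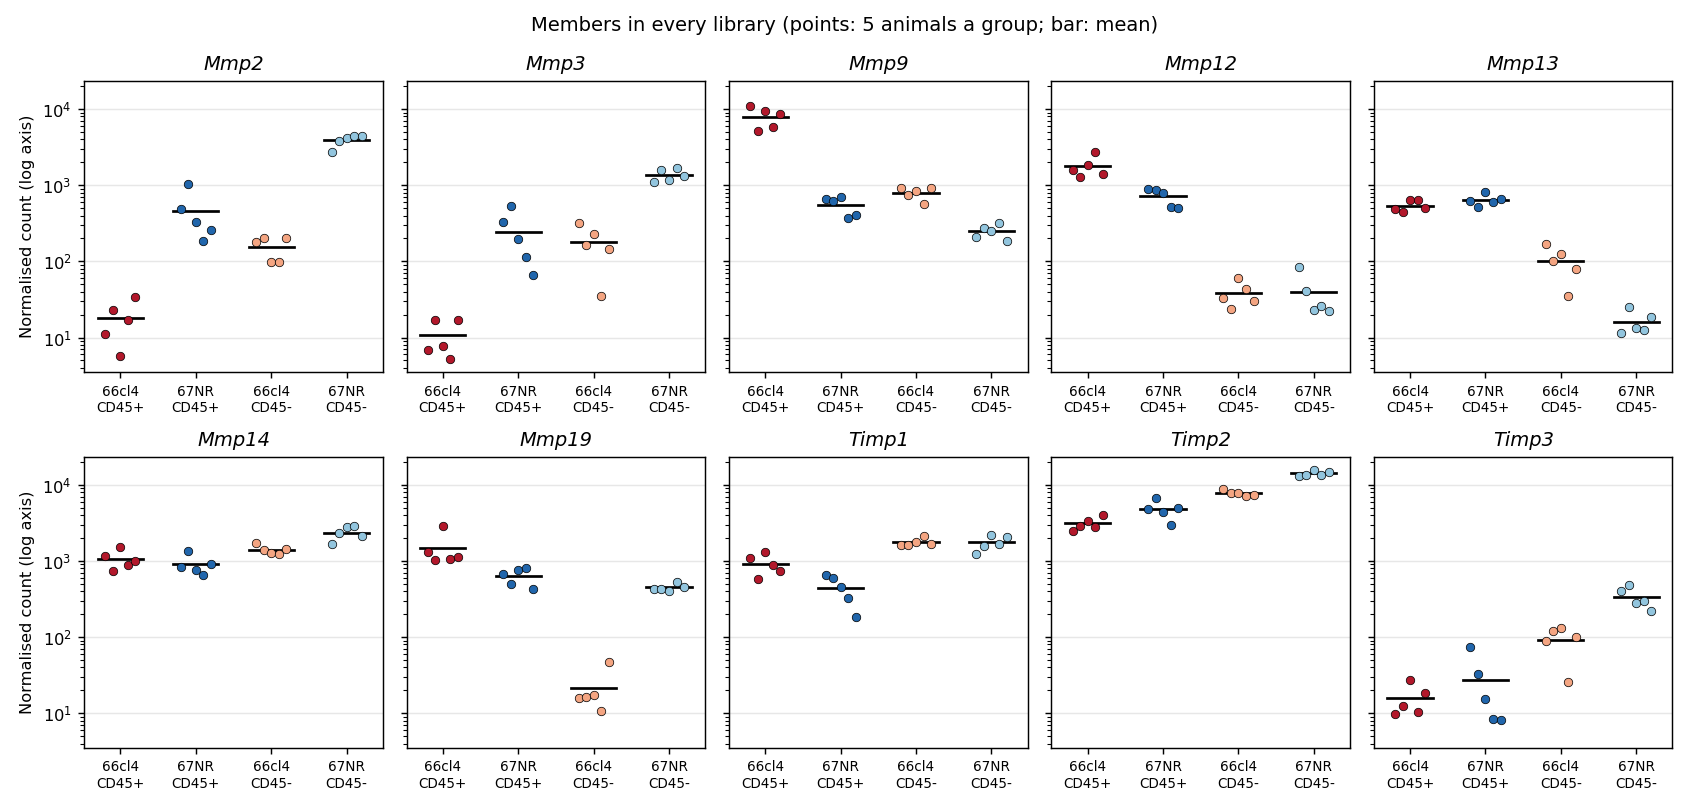
Normalised counts of the 10 members on a log axis. Points are the 5 libraries of each group and bars their mean. Mmp9 is highest in 66cl4 CD45+ cells and Mmp2 and Mmp3 in 67NR CD45- cells, while Mmp19 is at 10.6 to 46.9 in 66cl4 CD45- libraries and at 406.5 or more in every other library.

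Mmp19, a widely expressed MMP of basement membrane and matrix turnover, had tumour differences of opposite direction in the 2 gates. Its normalised counts in CD45- cells were 15.9, 16.2, 17.5, 10.6 and 46.9 in 66cl4, and 427.3, 422.4, 406.5, 533.6 and 456.1 in 67NR. The mean was 21.0-fold higher in 67NR (log2 fold change -4.36 ± 0.29, edgeR adjusted p = 3.07e-08). In CD45+ cells 66cl4 was higher instead, with 1303, 1016, 2876, 1049 and 1131 against 675.8, 494.6, 755.1, 805.2 and 421.8 in 67NR. The log2 fold change there was 1.23 ± 0.31.

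Animal 5 carried part of the CD45+ value. Without its CD45+ library the log2 fold change of Mmp19 was 0.85, below the threshold of 1. The difference between the gates was 5.60 ± 0.47 on the log2 scale (edgeR interaction test, adjusted p = 1.70e-08), and it passed in all 26 alternative fits, those without animals 5 and 6 included.

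The Mmp19 level of 67NR CD45- cells was 71.2% of that of CD45+ cells in these tumours, against 1.45% in 66cl4. Mast cell markers were the immune markers with the highest median share in the 67NR CD45- gate. They stood there at 22.4 to 35.1% of their CD45+ level, and at 0.639 to 5.80% in 66cl4. Their sum in 67NR CD45- libraries spread from 573.9 to 18114, while Mmp19 spread from 406.5 to 533.6. The part of these cells in the Mmp19 level was not tested.

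Mmp12 and Mmp13 were genes of the CD45+ gate in both tumours, but differed in where the tumours parted. Mmp12, the macrophage elastase, had normalised counts of 1605, 1267, 1846, 2736 and 1422 in 66cl4 and 902.2, 872.7, 798.8, 514.1 and 504.1 in 67NR CD45+ cells. These libraries did not overlap (log2 fold change 1.31 ± 0.25). In CD45- cells it was low in both tumours, at 23.7 to 59.9 and 22.5 to 83.4, with a difference of -0.01 ± 0.38 (edgeR adjusted p = 0.979). Summed macrophage markers went the other way among CD45+ cells, at 54500 to 83705 in 66cl4, as compared with 80824 to 120685 in 67NR.

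For Mmp13, or collagenase-3, the tumours overlapped in CD45+ cells, with 486.8, 448.1, 634.5, 642.9 and 496.1 in 66cl4 and 615.0, 524.3, 817.1, 606.3 and 664.6 in 67NR. They differed in CD45- cells, with 167.2, 99.8, 124.9, 35.1 and 79.9 in 66cl4 and 11.4, 25.5, 13.2, 12.5 and 18.4 in 67NR. Every 66cl4 library was higher there (6.26-fold, log2 fold change 2.66 ± 0.38, edgeR adjusted p = 2.73e-05). The CD45- level was 18.7% of the CD45+ level in 66cl4 and 2.51% in 67NR. The tumour difference of Mmp13 in CD45+ cells was lower than that in CD45- cells by 2.89 on the log2 scale (value -2.89 ± 0.41, edgeR interaction test, adjusted p = 1.29e-05). For Mmp12 the same test gave 1.34 ± 0.47 (edgeR adjusted p = 0.0285), and leaving out single libraries ended this call in 7 of 20 fits, with adjusted p up to 0.0984.

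Thus the 3 neighbours on chromosome 9 whose promoters are printed above had 3 orders of groups. Mmp3 was highest in 67NR CD45- cells, Mmp12 in 66cl4 CD45+ cells, and Mmp13 was high in CD45+ cells of both tumours. Over the 20 libraries the log2 levels of Mmp12 and Mmp13 had a Pearson r of 0.86, those of Mmp3 and Mmp12 of -0.71 and those of Mmp3 and Mmp13 of -0.69. Within groups, with the group means removed, these were -0.01, 0.03 and 0.45. The libraries share gate and tumour, so these values describe the groups more than the animals.

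Mmp14 varied over a narrower range than the other MMPs. Its normalised counts ranged over 727.1 to 1502 in 66cl4 CD45+, 649.5 to 1334 in 67NR CD45+, 1230 to 1712 in 66cl4 CD45- and 1648 to 2866 in 67NR CD45- libraries. In CD45- cells the log2 fold change was -0.70 ± 0.14 (edgeR adjusted p = 5.78e-04), under the fold threshold, and in CD45+ cells it was 0.24 ± 0.22. The 2 tumour differences were not alike (interaction 0.95 ± 0.28, edgeR adjusted p = 0.0104), although without 66cl4 animals 5 and 6 the interaction missed the threshold (0.77, edgeR adjusted p = 0.0735).

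Timp1, an inducible inhibitor of most soluble MMPs, differed between the tumours by less than the spread between animals in CD45- cells. The means were 1752 ± 210 in 66cl4 and 1748 ± 385 in 67NR (SD, n = 5 each, log2 fold change 0.04 ± 0.14, edgeR adjusted p = 0.838). In CD45+ cells the counts were 1081, 581.0, 1316, 896.4 and 734.5 in 66cl4 and 661.8, 597.9, 450.2, 325.9 and 185.2 in 67NR. These overlapped, and the log2 fold change was 1.05 ± 0.34, or 0.84 to 1.23 when single libraries were left out. The interaction was 1.04 ± 0.37 (edgeR adjusted p = 0.0313), and its call was lost in 10 of 20 fits that left out a single library.

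Timp2, which inhibits MMPs and also takes part in the activation of Mmp2 by Mmp14, was the most abundant inhibitor in every group. Its normalised counts in CD45- cells were 7181 to 8933 in 66cl4, as compared with 13188 to 15652 in 67NR. These did not overlap, but the log2 fold change of -0.82 ± 0.09 (edgeR adjusted p = 2.88e-06) was under the fold threshold. In CD45+ cells it was 2502 to 3980 in 66cl4, as compared with 2955 to 6800 in 67NR, with a log2 fold change of -0.61 ± 0.21.

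Timp3, an inhibitor that stays bound to the matrix, was the least abundant of the TIMPs. In CD45- cells it had 87.6, 120.3, 130.7, 25.5 and 99.8 normalised counts in 66cl4, and 405.4, 481.6, 279.2, 293.7 and 221.9 in 67NR. All 67NR libraries were higher (log2 fold change -1.81 ± 0.35, edgeR adjusted p = 8.24e-04). In CD45+ cells it had 8.23 to 73.4 in the 2 tumours together, and these overlapped. All 5 endothelial markers were also lower in 66cl4 CD45- than in 67NR CD45- cells, with sums of 487.6 to 959.3 against 911.2 to 3630. All 5 were lower in 66cl4 among CD45+ cells too. Between the gates, 3 of 5 were higher in CD45+ cells in each tumour, whereas Timp3 was lower there. The part of endothelial cells in the Timp3 difference was not tested.

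**Figure D3:**
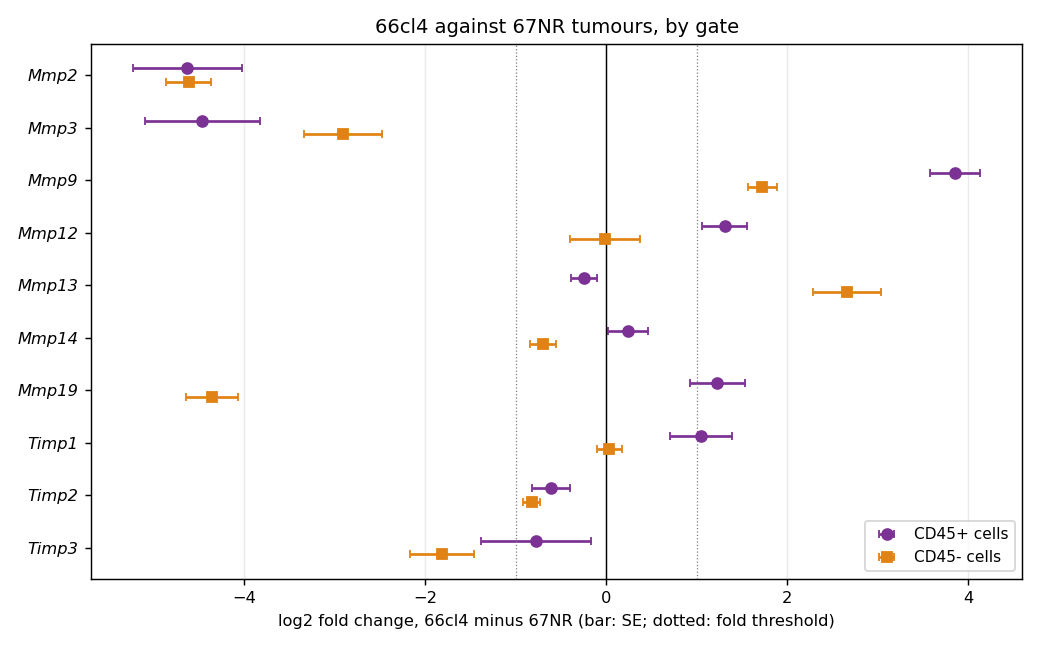
Log2 fold change of each member between 66cl4 and 67NR tumours in CD45+ cells (circles) and CD45- cells (squares), with the standard error. Dotted lines mark the fold threshold of 1. Mmp2 sits near -4.6 in both gates, Mmp19 on opposite sides of 0, and Mmp13 is far from 0 in CD45- cells only.

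Counted over the set, a member was called where the edgeR adjusted p was under 0.05 and the absolute log2 fold change over 1. In CD45+ cells 6 of 10 members were called between the tumours, 4 higher in 66cl4 (Mmp9, Mmp12, Mmp19 and Timp1) and 2 lower (Mmp2 and Mmp3), where 11.8% of all 14676 genes tested were called. As the members were chosen on this contrast, nothing is read from that count. Without 66cl4 animals 5 and 6, the count was 3, with Mmp2, Mmp3 and Mmp9 called. Timp1 lost its call in 8 of 10 fits that left out a single library. In CD45- cells 6 of 10 were called, Mmp9 and Mmp13 higher in 66cl4 and Mmp2, Mmp3, Mmp19 and Timp3 lower, against 32.2% of 14844 genes. The median log2 fold change of the members was -0.76. The members were selected on levels from this same table, so nothing is read from the CD45- count either.

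The effect of the tumour differed between the gates for 6 of 10 members (edgeR interaction test, adjusted p under 0.05), namely Mmp9, Mmp12, Mmp13, Mmp14, Mmp19 and Timp1. Of all 16453 genes tested, 43.1% passed. Mmp2, Mmp3, Timp2 and Timp3 did not, and for Mmp3 the value was -1.52 ± 0.77 (edgeR adjusted p = 0.119). The interaction contains the CD45+ contrast that chose the members, so nothing is read from this count. The count was 4 of 10 without 66cl4 animals 5 and 6.

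The contrast of the gates within each tumour asks which members belonged to immune and which to non-immune cells. In 66cl4 tumours 8 of 10 members were called, against 44.4% of 14916 genes. Mmp9, Mmp12, Mmp13 and Mmp19 were higher in CD45+ cells and Mmp2, Mmp3, Timp2 and Timp3 lower. In 67NR tumours 9 of 10 were called, against 39.8% of 15063 genes, with Mmp9, Mmp12 and Mmp13 higher in CD45+ cells and Mmp2, Mmp3, Mmp14, Timp1, Timp2 and Timp3 lower. The 3 TIMPs were thus lower in CD45+ than in CD45- cells in 5 of 5 animals of each tumour. As the members were selected on levels from these same libraries, nothing is read from the counts of called members between gates.

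The widest gap between gates was that of Mmp19 in 66cl4 tumours, 68.8-fold (log2 fold change 6.08 ± 0.45, edgeR adjusted p = 1.94e-07). In 67NR tumours Mmp19 had a mean of 631 in CD45+ and 449 in CD45- cells, with 4 of 5 animals higher in the CD45+ gate, and not called (0.49 ± 0.18, edgeR adjusted p = 0.0280). Mmp12 was 46.6-fold higher in CD45+ cells of 66cl4 (5.51 ± 0.30, edgeR adjusted p = 1.49e-08) and 18.4-fold in 67NR (4.19 ± 0.39, edgeR adjusted p = 3.04e-06). Mmp13 was 5.34-fold higher in 66cl4 and 39.8-fold in 67NR.

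Mmp9 was 9.95-fold higher in CD45+ than in CD45- cells of 66cl4 tumours (log2 fold change 3.28 ± 0.22, edgeR adjusted p = 5.31e-08). The gap was 2.23-fold in 67NR tumours (1.16 ± 0.21, edgeR adjusted p = 5.23e-04). Both were seen in 5 of 5 animals. With the animal as a replicate block, the count of called members was 9 in 66cl4 tumours, since Timp1 passed the fold threshold (-0.96 without the block, -1.01 with it), and 9 in 67NR tumours.

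**Figure D4:**
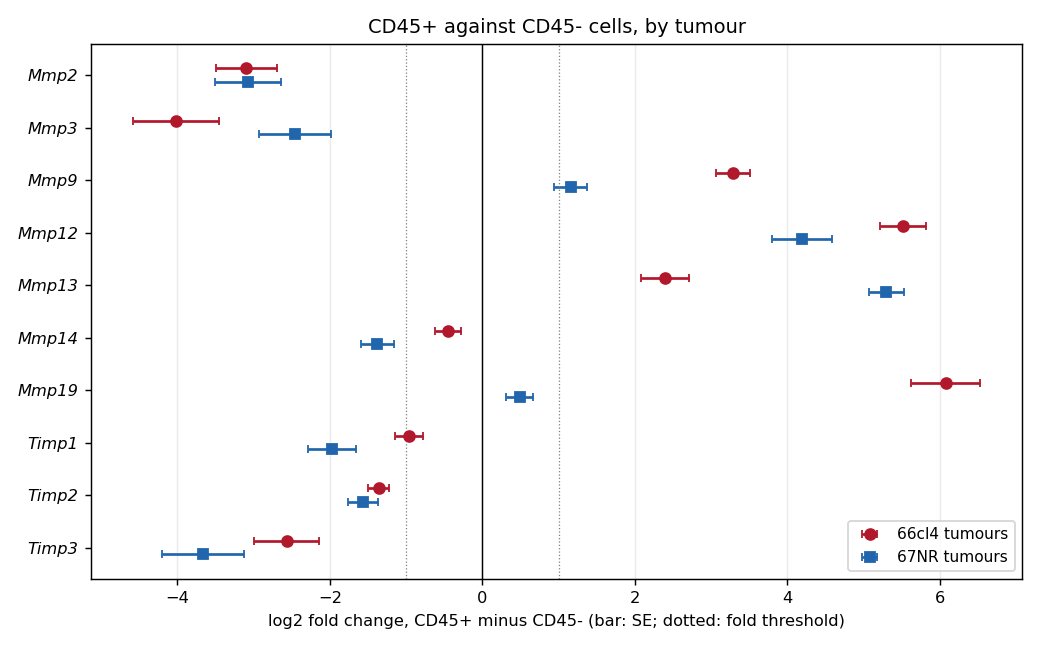
Log2 fold change of each member between CD45+ and CD45- cells in 66cl4 (circles) and 67NR tumours (squares), with the standard error. Dotted lines mark the fold threshold of 1. Mmp9, Mmp12 and Mmp13 lie to the right in both tumours, Mmp2, Mmp3 and the 3 TIMPs to the left, and Mmp19 lies far right in 66cl4 only.

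The rest of the family comprised 17 genes, most of which were too low to test. In CD45- cells 4 could be tested and all 4 were called, beside 32.2% of all genes, Mmp11 higher in 66cl4 and Mmp10, Mmp15 and Mmp28 lower. Mmp11, or stromelysin-3, had 206.6 to 423.4 normalised counts in 66cl4, as compared with 32.5 to 71.9 in 67NR CD45- libraries (log2 fold change 2.63 ± 0.25, edgeR adjusted p = 5.64e-07). Mmp28, or epilysin, had 42.5 to 106.2 and 182.5 to 313.0 (-1.99 ± 0.25, edgeR adjusted p = 7.80e-06). In CD45+ cells 1 of 4 tested was called, beside 11.8% of all genes. It was Mmp28, at 1.93 to 8.42 in 66cl4, as compared with 16.5 to 86.8 in 67NR.

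Mmp8 and Mmp25 were genes of the CD45+ gate. Their highest CD45- values were 17.97 each, in 67NR, against at least 210.9 and 351.7 in CD45+ libraries. The gate contrast was called for both genes in both tumours, with log2 fold changes of 8.88 and 7.91 in 66cl4 and of 5.57 for both in 67NR.

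Partners that activate, anchor, inhibit or clear MMPs and TIMPs were a list of 16 genes. In CD45+ cells 2 of 12 tested were called, both higher in 66cl4, beside 11.8% of all genes. Plaur, the receptor of urokinase, had 2270 to 9395 normalised counts in 66cl4, as compared with 656.4 to 1909 in 67NR (log2 fold change 1.85 ± 0.39, edgeR adjusted p = 0.00696). Cd44, the hyaluronan receptor that can hold Mmp9 at the cell surface, had 20454 to 38215 and 8424 to 12853 (1.38 ± 0.21, edgeR adjusted p = 9.22e-04). Lrp1, an endocytic receptor that clears MMPs and their inhibitors, was the most abundant partner not called (0.63 ± 0.27, edgeR adjusted p = 0.116).

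Among CD45- cells 6 of 14 tested partners were called, beside 32.2% of all genes. Reck, a membrane-anchored MMP inhibitor, and Bsg, an inducer of MMPs, were higher in 66cl4, and Furin, Pcsk6, Plau and Lrp1 were lower. Lrp1 had 8177 to 14239 normalised counts in 66cl4, as compared with 27727 to 36755 in 67NR (log2 fold change -1.62 ± 0.14, edgeR adjusted p = 2.03e-07). Plau, or urokinase, had 17.2 to 134.9 and 137.9 to 236.7 (-1.93 ± 0.52, edgeR adjusted p = 0.00723). Cd44 had the highest level of those not called, with a log2 fold change of -0.78 ± 0.11, under the fold threshold.

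Between the gates, 9 of 12 partners were called in 66cl4 tumours and 7 of 13 in 67NR tumours, beside 44.4% and 39.8% of all genes. With so few partners, nothing particular to the list is read from these counts. Plau was higher in CD45+ cells of both, by 5.92 ± 0.53 in 66cl4 and 3.46 ± 0.20 in 67NR on the log2 scale. Thbs2, a matrix protein that helps to clear Mmp2, was lower in CD45+ cells of both, at -4.02 ± 0.51 and -3.75 ± 0.38. The most abundant partner not called was Lrp1 in 66cl4 tumours (-0.08 ± 0.23) and Cd44 in 67NR tumours (0.09 ± 0.14).

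The genes whose log2 levels followed each member most closely over the 20 libraries were found by Pearson correlation, which here mostly mirrors the 4 groups. For Mmp9 they were Fam20c (r = 0.985), Klf7 (0.950) and Nt5e (0.949). For Mmp12 they were Clec5a (0.987), Il1rn (0.987) and Trem3 (0.985), for Mmp13 Daglb (0.982), Atp8a1 (0.981) and Tlr1 (0.978), and for Mmp19 Pid1 (0.988), Il13ra1 (0.979) and Ttc12 (0.978). Mmp2 was most like Fbln1 (0.986), Csgalnact1 (0.984) and Tmem45a (0.981), and Mmp3 most like Snai2 (0.982), Cd34 (0.979) and Ednra (0.978).

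Mmp14 had the lowest values of this kind, with Ndst1 (r = 0.942), Rarg (0.934) and Cdc42bpb (0.929). Timp1 was followed by Sdc1 (0.984), Nmrk1 (0.968) and Akr1b8 (0.961), Timp2 by Spsb1 (0.983), Pfkm (0.982) and Ptgs1 (0.979), and Timp3 by Lama4 (0.985), Emcn (0.974) and Sparcl1 (0.970). Between the members, Mmp2 and Mmp3 had an r of 0.96 over all libraries and of 0.67 within groups.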

How the data were processed

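RNA of CD45+ and CD45- cells from 5 mice per tumour was made into libraries with the SENSE mRNA kit of Lexogen. The authors trimmed the reads with fastp, quantified them with Salmon 1.3.0 and summed transcripts to genes with tximport, and deposited estimated counts (expected counts) of 52783 genes without normalisation. The submitters' notes name GRCh38, a human build, whereas the identifiers are mouse Ensembl genes, so no coordinates were taken for the counts. Symbols were found for 51492 identifiers. Reads shared by similar genes are divided by the estimation.

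Counts were rounded, which moved no value by more than 0.5. Total counts were 12960000 to 28080314, and 3 counts, the limit that a count of 0 allows, are at most 2.31e-05% of a library. Groups follow the sample titles, and for 66cl4 animals 5 and 6 results were repeated without them. No replicates were alike within sampling noise. Each replicate is 1 mouse.

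Groups were compared in R 4.3.3 with edgeR 4.0.16 (quasi-likelihood test, TMM, default filter with minimum count 10 and minimum total 15, robust fit) and Benjamini-Hochberg adjustment over all genes tested. A call needed both a log2 fold change over 1 in size and an adjusted p-value below 0.05, and for the interaction over 20 libraries the latter alone. The standard error of a log2 fold change is the absolute log2 fold change divided by the square root of the F statistic of its test. Near a log2 fold change of 0 this quotient is imprecise. Normalised counts are counts divided by size factors of DESeq2 1.42.0. TPM was computed with the median length of protein-coding transcripts of the reference annotation. Both gates of a mouse carry its number and are paired by it. The main fits did not include this pairing, while the fits with the replicate block did. Deviations of paired libraries from their group means correlated with r from 0.0251 up to 0.148 for 66cl4 animals, and from -0.00326 up to 0.324 for 67NR animals. Alternatives were DESeq2, other size factors, 2 other filters, a fit of all 20 libraries, the replicate block and leaving out libraries, and for the ratios of levels CPM and TPM. The fits were tested on simulated data. Promoter sequences came from RefSeq (GRCm38.p6). Figures were drawn with matplotlib 3.10.9.

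The genes named are the 10 members, other family members with a mean of at least 100 normalised counts in any group, partners with the largest fold change among those called and the highest level among the rest, and the 3 genes most like each member. Other genes are named where a count is small. The members and lists were chosen with earlier results of these data known.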

Additional observations from a re-analysis of the deposited data

Results flagged for a closer look

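In 2 of the 40 combinations of a member and a group, 1 library stood apart from the other 4 by more than Dixon's critical value for 5 samples, which chance gives in about 1 in 20 groups. Both concerned Mmp19. In 66cl4 CD45+ cells animal 5 had 2876 normalised counts, where the other animals had 1016 to 1303. In 66cl4 CD45- cells animal 7 had 46.9, where the others had 10.6 to 17.5. Animal 5 is among the animals whose recorded cell type contradicted the title, though Ptprc was 128-fold higher in its library titled CD45+. Ptprc in the CD45- library of animal 7 was 160.7, the highest of the 66cl4 CD45- libraries. The CD45- library of animal 5 had a similar Ptprc of 138.2, but its Mmp19 was 17.5. The part of leukocytes in the Mmp19 value of animal 7 was not tested.

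For 6 members the difference between 66cl4 and 67NR was not the same in the 2 gates by the edgeR interaction test. That test contains the CD45+ contrast that chose the members, so its values are a description. The difference in CD45+ minus that in CD45- cells was 5.60 for Mmp19, -2.89 for Mmp13, 2.15 for Mmp9, 1.34 for Mmp12, 1.04 for Timp1 and 0.95 for Mmp14, on the log2 scale. The groups of Mmp19 did not overlap in either gate and went in opposite directions, while Timp1 and Mmp14 overlapped between the tumours in both gates.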

How the results depend on the processing

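The number of called members fell from 6 to 3 in the tumour contrast of CD45+ cells without 66cl4 animals 5 and 6, where the log2 fold changes of Mmp12 (0.99), Mmp19 (0.87) and Timp1 (0.84) were under 1. As this contrast chose the members, these counts say nothing of how firm their differences are. In the interaction 4 of 10 passed without these animals and 4 without a filter on low counts. Leaving out single libraries gave 4 to 6 called members in CD45+ cells, 6 in CD45- cells, 8 or 9 in 66cl4 tumours, 9 in 67NR tumours and 4 to 7 for the interaction. The count of 4 in CD45+ cells came without 66cl4 animal 5, when Mmp19 and Timp1 were lost. Timp3 passed the interaction without 67NR CD45+ animal 1 (1.78, edgeR adjusted p = 0.0302) and Mmp3 without 66cl4 CD45- animal 6 (-1.81, edgeR adjusted p = 0.0373).

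With the replicate block, 5 members passed the thresholds between tumours in CD45+ cells (Timp1, at a log2 fold change of 1.27, did not). Timp1 lost its call for the interaction (1.08, edgeR adjusted p = 0.0517), and Timp3 gained one for the interaction (1.41, edgeR adjusted p = 0.0426). No other call of a member changed except that of Timp1 between gates of 66cl4. Between tumours animals share only a number.

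Changes of sign were seen in values that were not called. They were Timp3 in CD45+ cells with the block (0.23), Mmp12 in CD45- cells without a filter (0.0254), with the block (0.47) and leaving out single libraries (-0.23 to 0.47), Timp1 in CD45- cells with the block (-0.0271), without animals 5 and 6 (-0.0473) and leaving out single libraries (-0.0595 to 0.136), and the interaction of Mmp2 with DESeq2 (-0.0063), without a filter (-0.0408), with at least 10 counts in 5 libraries (-0.10) and leaving out single libraries (-0.48 to 0.576). The ratios of mean levels moved by less than the spread between animals as CPM or TPM in all 40 cases each. Low counts, at 6 to 40 estimated counts per library for Mmp2 and 5 to 20 for Mmp3 in 66cl4 CD45+ cells, limit the precision of these folds.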
